A study of Mus musculus with 32 samples.

Results

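The integrated stress response genes described here are 10 genes, Atf4, Atf3, Atf5, Ddit3, Trib3, Ppp1r15a, Chac1, Asns, Psat1, and Slc7a11, which were chosen by name from the 49671 genes of the count table. All 10 were found in the table, and all 10 passed the filter on low counts at both time points. RNA was sequenced from cultured cortical neurons of wild-type (WT) C57BL/6 mice, taken from embryos. The cultures were either untreated or exposed to 10 µg/mL of one of 3 synthetic oligoribonucleotides, namely the miRNA miR-124-5p, the miRNA miR-92a-1-5p, or Mut.oligo, an oligoribonucleotide with a mutated sequence that served as the control for sequence specificity. RNA was collected after 6 h or after 5 d, and each combination of condition and time point had 4 libraries, 32 in total, and libraries are named below by condition and replicate number. The labels call the replicates biological and give each library an experiment batch, a code that 1 to 4 libraries of different conditions share. Each batch held libraries of 1 time point, so the 5 d and the 6 h libraries also differed in batch.

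The integrated stress response starts when a kinase phosphorylates the translation initiation factor eIF2alpha, which slows protein synthesis in general while the mRNA of ATF4 is translated more efficiently. ATF4 and its dimerization partners then activate genes for amino acid synthesis, amino acid transport, and the loading of tRNAs, as well as further transcription factors of the pathway. Feedback genes limit the response, and under lasting stress the pathway can favor cell death. In neurons the pathway is known for its part in synaptic plasticity and in neurodegeneration. The exposure to extracellular miRNAs was designed to test how miRNAs acting as signaling molecules affect neurons, and the comparisons below ask whether these genes moved with the exposure, with time, or with the experiment batch.

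Factors of the ATF4 and C/EBP families are known to bind a composite DNA element, and its letters, TGATGNAA, were sought on both strands of the reference promoters, from 250 bases before to 50 bases after the transcription start (RefSeq, GRCm38.p6). All 10 genes had a promoter in that table. The element was found in 5 of the 10 genes, Atf3, Trib3, Chac1, Asns, and Slc7a11, and in 4.51% of all 27025 genes. It is shown with its surroundings because these genes are known as targets of the pathway. The letters of the element, or of its reverse complement where the match is on the other strand, are in capitals, and each stretch is written 5′ to 3′ on the strand of the gene.
Atf3: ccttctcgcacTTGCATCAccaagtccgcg
Trib3: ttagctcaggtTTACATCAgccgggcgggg
Chac1: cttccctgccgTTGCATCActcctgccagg
Asns: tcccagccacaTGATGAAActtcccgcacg
Slc7a11, first match: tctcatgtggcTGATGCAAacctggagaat
Slc7a11, second match: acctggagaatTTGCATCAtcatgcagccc
Ppp1r15a, other motif: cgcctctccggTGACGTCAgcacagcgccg

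The stretches lie at chr1:191183425-191183454 (minus strand) for Atf3, chr2:152344028-152344057 (minus strand) for Trib3, chr2:119351038-119351067 (plus strand) for Chac1, and chr6:7693214-7693243 (minus strand) for Asns. Those of Slc7a11 lie at chr3:50443661-50443690 and chr3:50443642-50443671 on the minus strand. Relative to the RefSeq transcription start, the match began at -110 in Atf3, 14 in Trib3, -193 in Chac1, -23 in Asns, and -66 and -47 in Slc7a11. These starts differ from the GENCODE gene bounds given below. By those bounds the matches of Atf3 and Asns lie inside the gene, and that of Trib3 lies just upstream of it. The last stretch, from Ppp1r15a at chr7:45526262-45526291 (minus strand), holds the cAMP response element TGACGTCA, which was sought in the same way and was found in 1 of the 10 genes and in 2.03% of all genes. A match describes letters and is not a measured binding site. Of the oligoribonucleotides, the mature sequence of miR-92a-1-5p was in the reference table, which places it at chr14:115044437-115044459 (plus strand, GRCm38.p6), and its seed, bases 2 to 8, is in capitals.
miR-92a-1-5p: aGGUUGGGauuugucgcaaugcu

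The DNA letters that pair with this seed, CCCAACC, were found in the longest annotated 3′ UTR of 0 of the 10 genes and in that of 8.74% of 21707 genes, where the 3′ UTRs had a median length of 691 bases for the 10 genes and 919 bases for all.

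In the GENCODE M21 annotation of GRCm38, the genes lie at chr15:80255184-80257541 (Atf4, plus strand), chr1:191170296-191218039 (Atf3, minus), chr7:44812256-44816658 (Atf5, minus), chr10:127290774-127296288 (Ddit3, plus), chr2:152337422-152344032 (Trib3, minus), chr7:45522916-45526268 (Ppp1r15a, minus), chr2:119351229-119354381 (Chac1, plus), chr6:7675169-7693254 (Asns, minus), chr19:15904678-15947337 (Psat1, minus), and chr3:49892526-50443614 (Slc7a11, minus). Exons of Atf5, Ddit3, and Ppp1r15a overlap with genes on the opposite strand, which the stranded counting keeps apart, and Ddit3 also overlaps with a second annotated gene of the same name and strand over 105 bases, which may affect its count.

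The libraries held between 24514090 and 73626029 counted reads, with a median of 33021610 for the 16 libraries of 6 h and 50126395 for the 16 of 5 d. Levels are given in CPM (counts scaled to an equal library total). The floor, set at 3 counts, lay between 0.0407 and 0.122 CPM by library and covers counting error only. The lowest count of any of the 10 genes was 27, for Trib3. The neuronal markers Tubb3, Map2, Rbfox3, Snap25, Syt1, Nefl, Slc17a7, and Gad1 were detected in every library, and their summed level was between 5029 and 5617 CPM at 6 h and between 4442 and 5884 CPM at 5 d. The summed level of 8 astrocyte and radial glia markers was 565 to 1337 CPM at 6 h and 1675 to 2870 CPM at 5 d, that of 8 microglia markers 8.70 to 19.2 CPM and 10.6 to 28.3 CPM, and that of 6 markers of cycling cells 140 to 389 CPM and 36.2 to 95.0 CPM, so the cultures held RNA of other cell types. Of all markers, Gjb6 (astrocytes) and P2ry12 (microglia) were at 0 in 2 libraries each, and Mog (oligodendrocytes) and Cldn5 (endothelial cells) in 10 each. In such bulk libraries, fewer cells of a type and less RNA per cell cannot be told apart.

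All 10 genes were higher in untreated neurons of the 5 d time point than in those of the 6 h time point. The median log2 fold change of the 10 genes was 1.69, against 0.04 over all genes tested, and the threshold of an adjusted p under 0.05 with a log2 fold change above 0.5 (edgeR's quasi-likelihood test) was passed by 10 of 10, where 19.1% of the 20425 genes tested passed it upward and 14.3% downward. The 4 untreated libraries of 5 d lay above the 4 of 6 h for 10 of 10 genes, as they did for 23.6% of all genes. Over all conditions, the 16 libraries of 5 d lay above the 16 of 6 h for 10 of 10 genes, and for 12.5% of all genes. Time point, culture, and batch cannot be told apart in these comparisons, nor can the time of exposure in the exposed libraries.

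**Figure D1:**
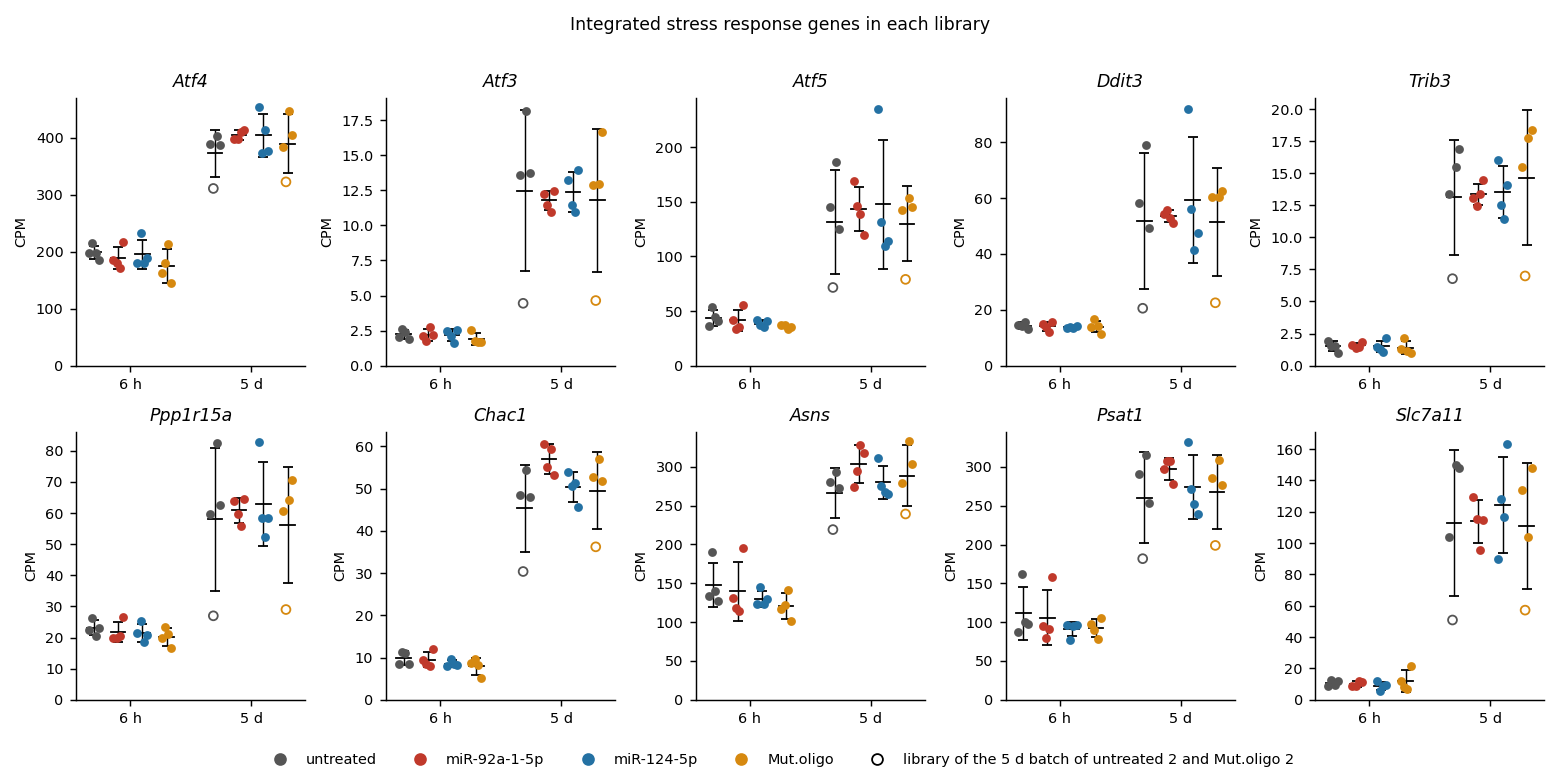
Level of each of the 10 genes in each of the 32 libraries, in CPM on a linear axis that starts at 0, by time point and condition. Points are libraries, horizontal lines with bars are the mean ± SD of 4 libraries, and open circles are untreated 2 and Mut.oligo 2 of 5 d, which share a batch. For each gene all points of 5 d lie above all points of 6 h, and the conditions of a time point overlap.

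Atf4, the central transcription factor of the pathway, was the most abundant of the 10 genes and among those with the smallest change. In untreated neurons it was at 197, 214, 198, and 186 CPM at 6 h and at 389, 311, 402, and 386 CPM at 5 d, in the order of the replicate numbers. The libraries of each time point lay close together, with untreated 2 as the lowest at 5 d. The fold of the means was 1.87, and the log2 fold change was 0.89 ± 0.104 (SE; adjusted p = 2.44e-08, edgeR). Atf3, a stress-induced factor of the same family, was at 2.02, 2.63, 2.38, and 1.88 CPM at 6 h and at 13.6, 4.44, 18.2, and 13.7 CPM at 5 d. Untreated 2 of 5 d stood well below the other libraries of its group and still above all of 6 h. The log2 fold change was 2.46 ± 0.296 (SE; adjusted p = 3.86e-08, edgeR).

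Atf5, another factor whose mRNA is translated preferentially when eIF2alpha is phosphorylated, was at 36.0, 53.4, 44.7, and 41.0 CPM at 6 h and at 145, 71.6, 186, and 125 CPM at 5 d. The 5 d libraries spanned a wider range than those of 6 h, again with untreated 2 at the bottom. Atf5 changed by a log2 fold change of 1.57 ± 0.212 (SE; adjusted p = 3.06e-07, edgeR). Ddit3, which encodes the pro-apoptotic factor CHOP, was at 14.5, 14.3, 15.7, and 13.0 CPM at 6 h and at 58.4, 20.6, 78.9, and 49.3 CPM at 5 d. Its 6 h libraries were nearly equal, whereas untreated 2 of 5 d was far below the other untreated libraries of 5 d. Ddit3 had a log2 fold change of 1.82 ± 0.264 (SE; adjusted p = 9.8e-07, edgeR).

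Both feedback genes rose. Trib3 encodes a pseudokinase that restrains ATF4 and CHOP, and it was at 1.96, 1.56, 1.57, and 0.981 CPM at 6 h and at 13.4, 6.78, 15.5, and 16.9 CPM at 5 d. It had the second largest fold of the means among the 10 genes, 8.67, with a log2 fold change of 3.11 ± 0.277 (SE; adjusted p = 1.14e-10, edgeR). Ppp1r15a encodes GADD34, the inducible subunit of the phosphatase that removes the phosphate from eIF2alpha. It was at 22.4, 26.2, 20.5, and 23.2 CPM at 6 h and at 59.8, 27.0, 82.5, and 62.6 CPM at 5 d. Untreated 2 of 5 d was only just above the highest untreated library of 6 h, 26.2 CPM, and the highest of all 16 libraries of 6 h, 26.7 CPM. The log2 fold change of Ppp1r15a was 1.30 ± 0.213 (SE; adjusted p = 6.07e-06, edgeR).

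The 4 effectors rose by very different amounts. Asns, asparagine synthetase, went from 134, 190, 139, and 127 CPM to 281, 219, 293, and 273 CPM, and with a log2 fold change of 0.84 ± 0.133 (SE; adjusted p = 4.07e-06, edgeR) it changed least of the 10. Psat1, an enzyme of serine synthesis, went from 87.3, 162, 99.6, and 97.5 CPM to 291, 182, 315, and 253 CPM. At 6 h untreated 2 was the high library of Psat1 and Asns, and at 5 d untreated 2, of another batch, was the low one. Psat1 had a log2 fold change of 1.21 ± 0.171 (SE; adjusted p = 7.03e-07, edgeR).

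Chac1 encodes an enzyme that degrades glutathione. It was at 8.56, 11.4, 11.1, and 8.51 CPM at 6 h and at 48.4, 30.4, 54.4, and 48.1 CPM at 5 d, with a log2 fold change of 2.18 ± 0.161 (SE; adjusted p = 2.08e-12, edgeR). Slc7a11 encodes xCT, the cystine-glutamate antiporter. It was at 8.89, 12.9, 9.60, and 12.2 CPM at 6 h and at 104, 50.9, 150, and 148 CPM at 5 d. This was the largest fold of the means among the 10 genes, 10.4, with a log2 fold change of 3.35 ± 0.318 (SE; adjusted p = 4.11e-10, edgeR). In the same comparison 6 of 8 astrocyte and radial glia markers rose and 6 of 6 markers of cycling cells fell, while 2 of 8 neuronal markers rose and 1 fell. The part of such changes in cell type makeup in the rise of the 10 genes was not tested.

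The rise did not depend on the low library. Without untreated 2 and Mut.oligo 2 of 5 d, a choice made after seeing the data, 10 of 10 genes passed, where 19.6% of all genes passed upward and 14.2% downward, with log2 fold changes of 2.73 for Atf3, 2.07 for Ddit3, 1.53 for Ppp1r15a, and 3.59 for Slc7a11.

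**Figure D2:**
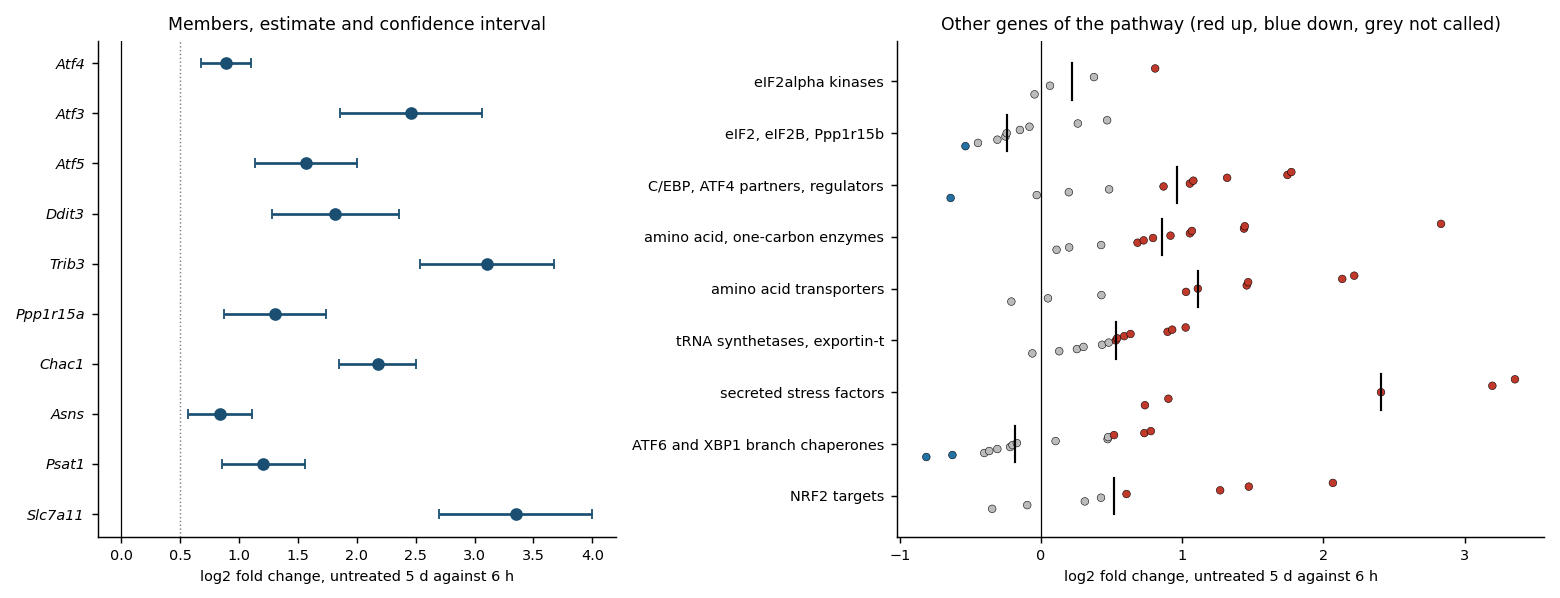
Left, log2 fold change of each of the 10 genes in untreated neurons, 5 d against 6 h, with its 95% interval (edgeR, 4 libraries against 4), where the dotted line marks the threshold of 0.5. Right, the same log2 fold change for 84 other genes of the pathway and its neighbors, where each point is a gene, black bars are list medians, and colors mark genes past the threshold. The 10 genes range from 0.84 to 3.35, and the amino acid, transporter, and secreted factor lists lie mostly to the right of 0.

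Levels of different genes were compared only per kilobase of exon, using the length of all annotated exons of a gene. In untreated neurons at 6 h, Atf4 was highest with 84.3 ± 4.96 CPM per kilobase (SD, n = 4), followed by Asns with 54.0 ± 10.5, Psat1 with 26.3 ± 8.04, and Atf5 with 22.0 ± 3.68, where the libraries of Psat1 and Atf5 overlapped. Ddit3 with 8.39 ± 0.647 and Ppp1r15a with 7.86 ± 0.812 overlapped as well, above Chac1 with 6.05 ± 0.964. Atf3, Slc7a11, and Trib3 closed the order between 0.713 and 1.03 CPM per kilobase and overlapped with their neighbors. At 5 d, Atf4 was still highest with 158 ± 17.6 CPM per kilobase and did not overlap with Asns, 97.4 ± 11.9. All further neighbors in the order overlapped, from Atf5 with 66.2 ± 23.9 down to Atf3 with 5.79 ± 2.68, which had become the lowest.

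Of the other genes of the pathway and its neighbors, 84 were tested in the same comparison, and 41 rose and 4 fell, where 19.1% of all genes rose and 14.3% fell. Without untreated 2 and Mut.oligo 2 of 5 d, 48 rose and 4 fell, where 19.6% of all genes rose and 14.2% fell. Among the kinases of eIF2alpha, 1 of 4 rose, namely Eif2ak3, which encodes PERK, the kinase that senses stress of the endoplasmic reticulum, with a log2 fold change of 0.81. Those for PKR (Eif2ak2, 0.38), GCN2 (Eif2ak4, 0.06), and HRI (Eif2ak1, -0.05) did not pass. Of 9 genes for subunits of eIF2 and its exchange factor eIF2B and for the constitutive phosphatase subunit, 0 rose and 1 fell, Eif2s3x with -0.53, and the median of this list was -0.24.

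The lists of known ATF4 targets and partners lay higher. Of 12 enzymes of amino acid and one-carbon metabolism 9 rose, and the median log2 fold change was 0.86. The 5 with the smallest p were Mthfd2 (1.44), Pck2 (2.83), Aldh1l2 (1.06), Gpt2 (0.68), and Cth (1.44). Pck2, mitochondrial phosphoenolpyruvate carboxykinase, was at 2.72 to 6.59 CPM in untreated neurons at 6 h and at 18.1 to 41.5 CPM at 5 d. Of 9 amino acid transporters 6 rose, with a list median of 1.11, among them Slc1a4 (1.11), Slc6a9 (2.13), Slc7a1 (1.47), Slc7a5 (1.46), and Slc3a2 (1.03), whose product is the partner subunit of xCT.

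Of 13 aminoacyl-tRNA synthetases and the tRNA exporter Xpot, 7 rose, with a list median of 0.53, led by Xpot (0.90), Tars (1.02), Cars (0.93), Lars (0.63), and Eprs (0.59). Among 10 partners of ATF4 and stress-induced regulators, 6 rose and 1 fell. Sesn2, a regulator of amino acid signaling (1.77), Herpud1 (1.08), Jdp2 (0.87), and Nfe2l2 (1.32), which encodes NRF2, rose, Nupr1 (1.75) and Cebpb (1.05) also rose, and Nfil3 fell by 0.64. All 5 secreted stress factors passed upward, including Vegfa (0.74), Gdf15 (2.41), and Stc2 (0.90). The other two, Fgf21 and Adm2, were at or below 3 counts in untreated neurons of 6 h, with means of 0.0282 and 0.00811 CPM, and no fold is given for them.

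The neighboring stress pathways gave a mixed picture. Of 14 chaperones and factors of the ATF6 and XBP1 branches of the unfolded protein response, 3 rose and 2 fell, with a list median of -0.19. Hsp90b1 (0.73), Dnajb9 (0.78), and Atf6 (0.52) rose and Sdf2l1 (-0.81) and Creld2 (-0.63) fell, while Hspa5, which encodes the chaperone BiP, was at 0.48 and below the threshold on fold change. Of 8 NRF2 targets 4 rose, namely Srxn1 (1.47), Osgin1 (2.07), Hmox1 (1.27), and Nqo1 (0.61), with a list median of 0.52.

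At 6 h, none of the oligoribonucleotides changed any of the 10 genes past the threshold. Against untreated neurons, 0 of 10 passed after miR-92a-1-5p, 0 of 10 after miR-124-5p, and 0 of 10 after Mut.oligo exposure (edgeR, adjusted p of 0.485 or more), where 0.0% of the 18755 genes passed in either direction in each comparison. At an unadjusted p under 0.05, the numbers of all genes were 891, 852, and 1780, and DESeq2 called 0, 0, and 10 genes, none of the 10 described here. The log2 fold changes of the 10 genes ranged from -0.10 to 0.07 after miR-92a-1-5p, from -0.28 to 0.00 after miR-124-5p, and from -0.32 to 0.12 after Mut.oligo exposure, with medians of -0.07, -0.14, and -0.20, whereas the medians over all genes lay between -0.00334 and 0.00554. The 4 libraries of each exposure overlapped with the untreated ones for 10 of 10 genes, where between 1.36% and 2.59% of all genes, by comparison and direction, did not overlap. The 3 comparisons share the untreated libraries. In a fit that had the batch as a covariate, these medians were -0.08, -0.04, and -0.07, and 0 of 10 genes passed in each comparison, where 0.0746% of all genes passed upward and 0.133% downward after miR-92a-1-5p, 0.0% in either direction after miR-124-5p, and 0.0213% downward after Mut.oligo exposure.

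The member with the smallest p at 6 h was Atf5 after Mut.oligo exposure. Its 4 libraries were at 36.8, 37.0, 33.5, and 35.6 CPM, against 36.0 to 53.4 CPM in untreated neurons, and the groups overlapped. The difference was -0.29 on the log2 scale (95% interval -0.56 to -0.03; adjusted p = 0.485, edgeR). Untreated 2, which shares a batch only with miR-92a-1-5p 4, was the highest untreated library. Without both of them 0 of 10 genes passed, where 0.0% of 18430 genes did. Slc7a11 had 1 high library, Mut.oligo 4 with 21.6 CPM, against 5.69 to 12.9 CPM in the other libraries of 6 h, and Mut.oligo 4 was the only library of its batch.

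At 5 d, none of the 10 genes passed the threshold either. Against untreated neurons, 0 of 10 passed after miR-92a-1-5p, where 0.0% of 19333 genes passed upward and 0.00517%, a single gene, downward. For miR-124-5p and Mut.oligo, 0 of 10 passed each, with 0.0% of all genes in either direction. At an unadjusted p under 0.05, the numbers of all genes were 702, 503, and 539, and DESeq2 called 29, 0, and 3 genes, none of them among the 10. The groups overlapped for 10 of 10 genes in each comparison, where between 0.502% and 1.78% of all genes did not, by comparison and direction. The log2 fold changes ranged from -0.05 to 0.36, from 0.02 to 0.21, and from -0.05 to 0.19, with medians of 0.13, 0.13, and 0.05, whereas the medians over all genes lay between -0.00128 and 0.0031. With the batch as a covariate, these medians were 0.007, -0.003, and 0.13. In this fit 0 of 10 genes passed in each comparison as well, where 0.00517% of all genes passed upward and 0.347% downward after miR-92a-1-5p, 0.0259% downward after miR-124-5p, and 0.0466% downward after Mut.oligo exposure.

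**Figure D3:**
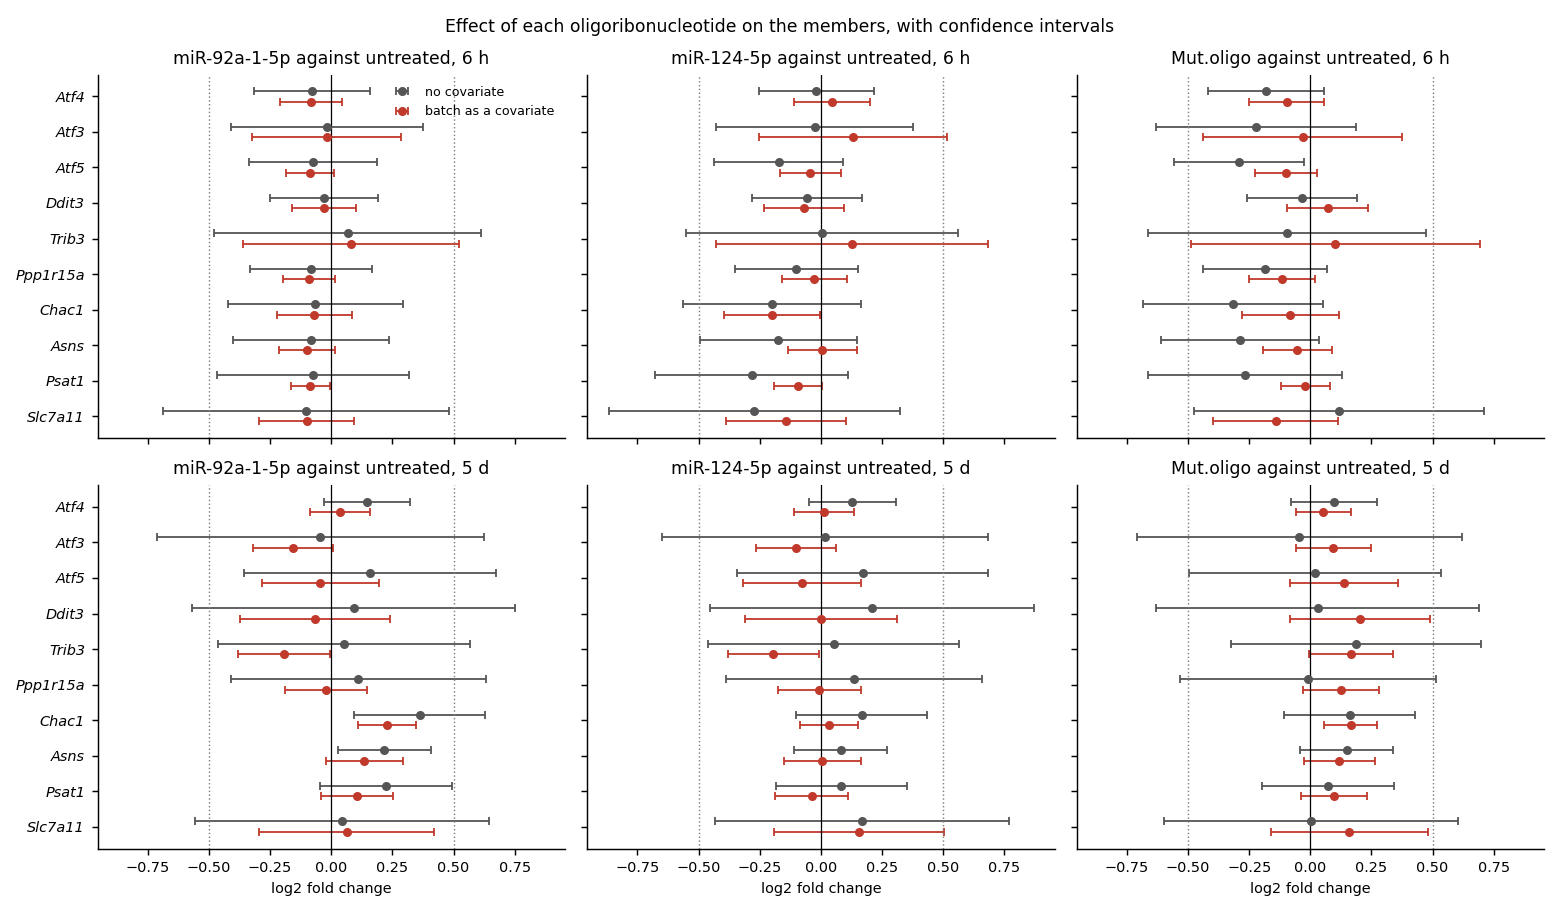
Log2 fold change of each of the 10 genes after exposure to each oligoribonucleotide against untreated neurons, with 95% intervals (edgeR, 4 libraries against 4). Grey is the fit without a covariate and red the fit with the experiment batch as a covariate, and dotted lines mark the threshold of 0.5 in both directions. At 5 d the red intervals are narrower, and those of miR-92a-1-5p stay between -0.38 and 0.42.

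The intervals show which sizes of effect these libraries left possible. Without a covariate, the 95% interval stayed within a log2 fold change of -0.5 to 0.5 for 8, 6, and 3 of 10 genes at 6 h and for 3, 4, and 4 of 10 genes at 5 d, where the first number is for miR-92a-1-5p, the second for miR-124-5p, and the third for Mut.oligo. With the batch as a covariate, it did so for 9, 8, and 9 of 10 genes at 6 h and for 10, 9, and 10 of 10 genes at 5 d. The exceptions at 6 h had bounds of up to 0.52, 0.68, and 0.69, and the exception at 5 d, after miR-124-5p, reached 0.50. In this fit, libraries that are alone in their batch, namely miR-124-5p 3 and Mut.oligo 4 of 6 h and untreated 3 of 5 d, add nothing to a comparison.

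Chac1 after 5 d of miR-92a-1-5p was nearest to a difference from untreated neurons. Its libraries were at 60.6, 55.1, 59.3, and 53.1 CPM, against 48.4, 30.4, 54.4, and 48.1 CPM in untreated neurons. Of the miR-92a-1-5p libraries 3 lay above all untreated ones, and 1 below untreated 3. The log2 fold change of Chac1 was 0.36 ± 0.127 (SE; 95% interval 0.09 to 0.63; adjusted p = 0.961, edgeR). Within the 2 batches that held both conditions, the differences were 0.22 and 0.15. Mut.oligo was also above untreated for Chac1 at 5 d in each of the 3 batches they shared, by 0.15, 0.28, and 0.09. With the batch as a covariate, the log2 fold change of Chac1 after miR-92a-1-5p was 0.23 ± 0.0544 (SE; adjusted p = 0.104, edgeR). DESeq2 with the same covariate gave 0.23 with an adjusted p of 0.0267, below the threshold on fold change. Asns had the next smallest p of the members in the same comparison, with libraries at 274, 295, 328, and 318 CPM against 219 to 293 CPM and a log2 fold change of 0.22 ± 0.09 (SE; 95% interval 0.03 to 0.41), not past the threshold.

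The oligoribonucleotides did not differ from each other in these genes past the threshold. In each of the 3 pairs at 6 h, 0 of 10 genes passed and 0.0% of all genes did. In each of the 3 pairs at 5 d, 0 of 10 genes and 0.0% of all genes passed as well. At an unadjusted p under 0.05, the numbers of all genes were 398 for miR-92a-1-5p against Mut.oligo, 671 for the pair of miR-124-5p with Mut.oligo, and 413 between both miRNAs at 6 h, and 383, 325, and 442 at 5 d, and DESeq2 called 0 of the 10 genes in each pair. The fold changes of the 10 genes ranged from -0.39 to 0.25 at 6 h and from -0.13 to 0.20 at 5 d on the log2 scale.

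Within batches of 5 d, 9 of 10 genes were lower after miR-124-5p than after Mut.oligo in 3 of 3 batches, with Slc7a11 lower in 1 of 3. For miR-92a-1-5p against Mut.oligo, Atf3, Ddit3, Trib3, Ppp1r15a, and Slc7a11 were lower and Chac1, Asns, and Psat1 higher in 3 of 3 batches. The share of all genes with the same direction in each batch is not given here. Genes of a library are not independent, so these counts do not set the 10 genes apart from other genes. Chac1 separated both miRNAs in each of the 4 batches that held them, with log2 differences of 0.14 to 0.24 (miR-92a-1-5p minus miR-124-5p). Trib3 had the lowest mean difference from Mut.oligo among the 10 genes for each miRNA. At 5 d it was at 15.5, 6.99, 17.8, and 18.4 CPM after Mut.oligo, at 13.1, 12.4, 13.4, and 14.5 CPM after miR-92a-1-5p, and at 16.03, 12.5, 11.4, and 14.1 CPM after miR-124-5p exposure. Mut.oligo 2 was the lowest of these 12 libraries, and the other Mut.oligo libraries were at or near the top. In the 3 batches that held both, Trib3 was lower after miR-92a-1-5p than after Mut.oligo by -0.30, -0.39, and -0.31 on the log2 scale. For miR-124-5p the same differences were -0.31, -0.59, and -0.33. In the fit with the batch, Trib3 had log2 fold changes of -0.36 ± 0.0761 (SE; adjusted p = 0.32, edgeR) and -0.36 ± 0.0767 (SE; adjusted p = 0.998, edgeR), so neither passed, and 0 of 10 genes did in any of these pairs, where 0.0103% of all genes passed downward for miR-92a-1-5p against Mut.oligo and against miR-124-5p and 0.0% for miR-124-5p against Mut.oligo. These 2 comparisons share the Mut.oligo libraries. Against untreated neurons in the same fit, Trib3 was at -0.19 for both miRNAs and at 0.17 for Mut.oligo.

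Differences within batches are given over the 10 genes together. At 6 h, miR-92a-1-5p and untreated libraries shared 4 batches, and 10 of the 40 differences were positive, between -0.50 and 0.58 on the log2 scale with a median of -0.09. For miR-124-5p and Mut.oligo, with 2 batches each, 8 and 6 of 20 differences were positive, with medians of -0.05 and -0.08 and ranges of -0.43 to 0.54 and -0.76 to 0.43. At 5 d, miR-92a-1-5p was above untreated in 13 of 20 differences, miR-124-5p in 4 of 20, and Mut.oligo in 25 of 30, with medians of 0.05, -0.04, and 0.12 and a full range of -0.35 to 0.39. Mut.oligo was the lower one in 2 of 30 differences with miR-124-5p (median -0.16, miR-124-5p minus Mut.oligo) and in 12 of 30 with miR-92a-1-5p (median -0.10). Between both miRNAs at 5 d, miR-92a-1-5p was above miR-124-5p in 26 of 40 differences, with a median of 0.06, a range of -0.68 to 0.60, and 3 beyond 0.5 in size. Genes of a library and libraries of a batch are not independent, so these counts are a description.

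The change of the effect between 6 h and 5 d was tested as an interaction over all 32 libraries. For each oligoribonucleotide 0 of 10 genes passed, with 0.0% of the 20425 genes in either direction. At an unadjusted p under 0.05 there were 800 genes for miR-92a-1-5p, 540 for miR-124-5p, and 1133 for Mut.oligo. With the batch as a covariate, 0 of 10 genes passed as well, where 0.0441% of all genes passed upward and 0.093% downward for miR-92a-1-5p, 0.0049% downward for miR-124-5p, and 0.00979% downward for Mut.oligo. DESeq2 called 0 genes in each. The smallest p among the 10 genes was that of Asns for Mut.oligo, with a difference of effects of 0.46 on the log2 scale (95% interval 0.07 to 0.84; adjusted p = 0.857, edgeR). Under the alternative runs this difference ranged from 0.18 to 0.54, and when each library was left out, from 0.33 to 0.54.

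Like most genes tested, most of the 10 genes differed less between conditions of a batch than between batches of a condition. At 5 d, the median absolute log2 difference of the 10 genes was 0.119 between libraries that shared a batch and differed in condition (17 pairs) and 0.231 between libraries of the same condition from different batches (24 pairs). Over all genes these medians were 0.128 and 0.197. At 6 h they were 0.0928 and 0.225 for the 10 genes (14 and 24 pairs) and 0.116 and 0.168 for all genes. At each time point, 9 of the 10 genes differed less within a batch, as did 69.9% of all genes at 6 h and 75.2% at 5 d. The exceptions were Trib3 at 6 h, with 0.382 within a batch and 0.364 between batches, and Chac1 at 5 d, with 0.139 and 0.114. The pairs of 5 d include the low libraries untreated 2 and Mut.oligo 2, described below.

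**Figure D4:**
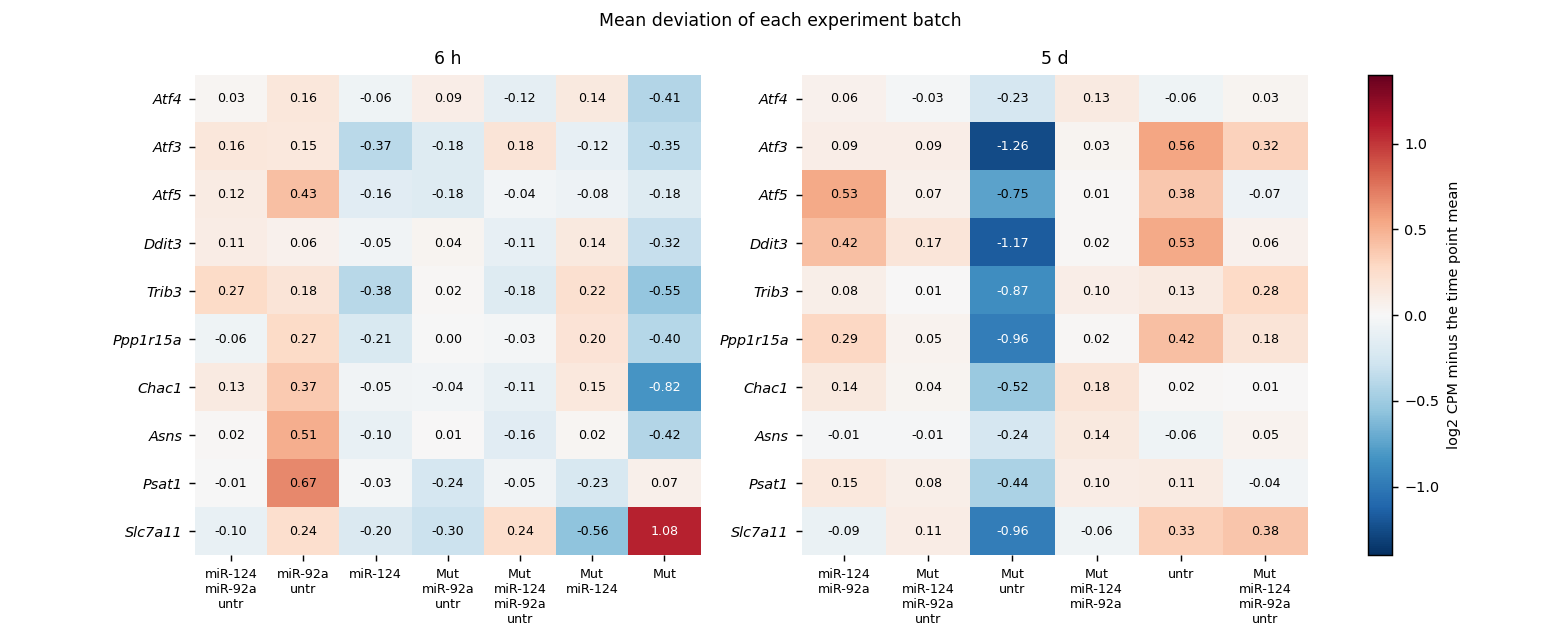
Mean deviation of each experiment batch from the mean of its time point, in log2 CPM, for each of the 10 genes (rows). Columns are batches in the order of the numbers in their codes, labelled by the conditions that had a library in them. In the labels untr stands for untreated, Mut for Mut.oligo, and the miRNAs are shortened. At 5 d the batch of untreated 2 and Mut.oligo 2 is negative for all 10 genes, from -1.26 to -0.23, and at 6 h the batch of untreated 2 and miR-92a-1-5p 4 is positive for all 10.

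The batch of untreated 2 and Mut.oligo 2 at 5 d was the clearest case. These were the 2 lowest of the 16 libraries of 5 d for each of the 10 genes. The share of all genes for which this held is not given here, and the batch was singled out after its values were seen. Their mean deviation was -1.26 for Atf3, -1.17 for Ddit3, -0.96 for Ppp1r15a, -0.96 for Slc7a11, -0.87 for Trib3, and -0.75 for Atf5, and it was smaller for Chac1 (-0.52), Psat1 (-0.44), Asns (-0.24), and Atf4 (-0.23). The median of the 10 genes was -0.81, whereas that of all 19333 genes was -0.00473, and 51.1% of all genes were below 0. The libraries, 1 untreated and 1 exposed, were close to each other: Ddit3 was at 20.6 and 22.5 CPM, against 41.5 to 91.9 CPM in the other 14 libraries, and Ppp1r15a was at 27.0 and 29.0 CPM, against 52.3 to 82.7 CPM.

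Some marker sums of this batch lay beyond those of the other libraries of 5 d, and others lay within their range. The summed neuronal markers were at 5798 and 5884 CPM, against 4442 to 5747 CPM in the other libraries of 5 d, and those of astrocytes and radial glia were at 1675 and 1860 CPM, against 1733 to 2870 CPM. Microglia markers summed to 10.6 and 11.3 CPM, against 11.6 to 28.3 CPM. Similar astrocyte and radial glia sums occurred in batches that were not low for the 10 genes. In the batch of untreated 4 (median deviation 0.05) they were 1752 to 2066 CPM, with microglia sums of 11.6 to 12.5 CPM. In that of Mut.oligo 3 (0.07), the sums were 1733 to 1910 CPM and 13.2 to 17.0 CPM. The part of cell type makeup in the low levels of the 10 genes in untreated 2 and Mut.oligo 2 was not tested. Without both libraries, 0 of 10 genes passed in each comparison of an oligoribonucleotide with untreated or with another oligoribonucleotide at 5 d. In these comparisons 0.0% of the 19220 genes tested passed in either direction.

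Batches of 6 h stood apart less. In the batch of untreated 2 and miR-92a-1-5p 4, all 10 genes were above the mean of the time point, most of all Psat1 (0.67), Asns (0.51), and Atf5 (0.43), and the libraries held the highest values of both enzymes, with 162 and 158 CPM for Psat1 and 190 and 195 CPM for Asns. The markers of cycling cells summed to 344 and 353 CPM in these libraries, against 140 to 265 CPM in the other batches of 6 h except that of Mut.oligo 4, and 6 of 6 were above the mean. Of the astrocyte and radial glia markers 7 of 8 were above the mean, the neuronal markers summed to 5029 and 5130 CPM, and the microglia markers to 8.70 and 9.22 CPM. Their part in the levels of the 10 genes was not tested. Without these 2 libraries, 0 of 10 genes passed in each comparison of 6 h, where 0.0% of the 18430 genes tested passed in either direction. The miR-124-5p library that was alone in its batch lay below the mean for all 10 genes. Its deviations ran from -0.38 to -0.03, with a median of -0.13. Mut.oligo 4 was low for Chac1 (-0.82), Trib3 (-0.55), Asns (-0.42), and Atf4 (-0.41). In Mut.oligo 4, 8 of 10 genes were below the mean, and Slc7a11 (1.08) and Psat1 (0.07) were above it. This library had the highest sums of 6 h for the markers of astrocytes and radial glia (1337 CPM), fibroblasts and meningeal cells (360 CPM), endothelial and mural cells (29.2 CPM), and cycling cells (389 CPM), and a neuronal sum of 5102 CPM. The part of these markers in its levels was not tested. For Mut.oligo 4 and for the miR-124-5p library alone in its batch, the share of all genes below the mean is not given here.

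At 5 d, miR-124-5p 1 was the highest of all 16 libraries for Atf5 and Ddit3. Atf5 was at 235 CPM in it and at 169 CPM in miR-92a-1-5p 1, the other library of its batch, and Ddit3 was at 91.9 and 54.4 CPM. Slc7a11 was at 89.8 CPM in miR-124-5p 1 and at 129 CPM in miR-92a-1-5p 1, a difference of 0.60 on the log2 scale. In miR-124-5p 1 the neuronal markers had the lowest sum of 5 d, 4442 CPM, and the microglia markers the highest, 28.3 CPM, and their part in these levels was not tested.

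How far the 10 genes moved together at 5 d depended on the low batch. Over the 16 libraries of 5 d, all 45 correlations between pairs of genes were positive, with a median Pearson's r of 0.76, a range of 0.36 to 0.97, and 42 above 0.5. Without untreated 2 and Mut.oligo 2, a choice made after seeing the data, 30 of 45 were positive over the other 14 libraries, with a median of 0.17, a range of -0.76 to 0.90, and 13 above 0.5. Over the 16 libraries of 6 h, 39 of 45 were positive, with a median of 0.36 and a range of -0.73 to 0.85, and without untreated 2 and miR-92a-1-5p 4 of 6 h 31 were, with a median of 0.27. The libraries share batches, so these values describe the libraries and carry no p. Of 17906 genes, those most like a member in their deviations from the time point mean over 32 libraries, those of the low batch included, were among others Nars (r = 0.96) and Cars (0.94) for Asns, Creb3 (0.93) for Ddit3, Hspa9 (0.93) for Ppp1r15a, 2410006H16Rik (0.92) for Atf5, Psph (0.87) and Shmt2 (0.86) for Psat1, and Stc2 for both Atf4 (0.87) and Chac1 (0.84). Slc7a11 was most like Ddr2 (0.86) and Cd44 (0.81), Atf3 like Tgif1 (0.81), and Trib3 like Ubl4a (0.77).

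The wider pathway did not pass in the oligoribonucleotide comparisons. Of the other genes of the lists, 82 were tested at 6 h and 84 at 5 d, and 0 passed in each comparison without a covariate. With the batch as a covariate, 1 of 84 passed at 5 d, Gdf15, a secreted stress factor. Against untreated neurons, miR-92a-1-5p gave a difference of -0.66 ± 0.119 (SE, log2; adjusted p = 0.0303, edgeR), where 0.347% of all genes passed downward, and against Mut.oligo the difference was -0.85 ± 0.105 (SE, log2; adjusted p = 0.0232, edgeR), where 0.0103% did. DESeq2 with the same covariate also called both, with adjusted p of 0.0267 and 3.53e-04. Without the covariate these differences were -0.17 ± 0.356 and -0.63 ± 0.353 (SE, edgeR) and did not pass. Gdf15 was at 1.93, 0.905, 1.56, and 3.16 CPM in untreated neurons and at 1.58, 1.18, 1.84, and 2.05 CPM after miR-92a-1-5p, and at 2.20, 1.03, 3.67, and 3.40 CPM after Mut.oligo exposure. In the 2 batches with both untreated and miR-92a-1-5p libraries, and in the 3 with both Mut.oligo and miR-92a-1-5p libraries, the miR-92a-1-5p library was the lower one. The mean of the 4 untreated libraries was 1.89 ± 0.945 CPM and that of the 4 miR-92a-1-5p libraries 1.66 ± 0.374 CPM (SD), and the groups overlapped. Other listed genes missed only the threshold on fold change in the fit with the batch, for miR-92a-1-5p against untreated neurons. These were Nfil3 at 6 h (-0.30 ± 0.044, SE; adjusted p = 0.00558, edgeR) and Slc7a3 at 5 d (0.48 ± 0.0915, SE; adjusted p = 0.0394, edgeR). In the same fit, Nfil3 was also lower after Mut.oligo than in untreated neurons at 6 h (-0.25 ± 0.0548, SE; adjusted p = 0.151, edgeR).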

How the data were processed

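Cortical neuron cultures were sequenced by RNA-seq (stranded mRNA libraries) in 32 libraries, grouped by their deposited labels. The authors mapped the reads to GRCm38 with STAR, assigned them strand-specifically to gene exons with featureCounts (Subread), and deposited raw counts per gene without normalization. Of 49671 gene identifiers 49412 had a symbol in GENCODE M21 (GRCm38), and 0 sample columns were left over. None of 48 replicate pairs was identical (chi-square per degree of freedom 6.60 to 101).

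A gene was tested if 3 or more libraries held 5 or more counts. The test was edgeR 4.0.16 (R 4.3.3; TMM, quasi-likelihood, two-sided, Benjamini-Hochberg adjustment over all genes tested). All 4 conditions of a time point shared a fit, or all 32 libraries for time and interactions, with no covariate. The threshold was an adjusted p below 0.05 together with a log2 fold change beyond 0.5 in size. P-values measure the spread between these libraries. CPM are counts scaled to the library total, and deviations and within-batch differences use TMM-normalized log2 CPM (prior count 2). As alternatives, batch or replicate number entered as a covariate, DESeq2 1.42.0 was run with and without batch, and RLE factors, other filters (none, or 10 counts in each library), no fold minimum, fits of 2 groups, and fits that leave out a library were used. Leaving out 1 batch at 5 d and 1 at 6 h, in fits and in correlations, was added after the data were seen. The methods were tested on simulated data. The study's methods name DESeq2, which is an alternative here.

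The 10 genes, the wider lists, and the markers were chosen with earlier results of these data known. From the wider lists, up to 5 genes past the threshold with the smallest p are named per list. Nupr1, Cebpb, Eif2ak1, Eif2ak2, Eif2ak4, Hspa5, and Slc7a3, and Nfil3 in the miR-92a-1-5p and Mut.oligo comparisons, were named after their values were seen. For likeness, up to 2 genes with the highest Pearson's r are given per member. Sequences are from RefSeq (GRCm38.p6). Those of the other two oligoribonucleotides are not printed here.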

Additional observations from a re-analysis of the deposited data

Results flagged for a closer look

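Of 80 groups of 4 libraries (10 genes, 8 conditions), 6 held 1 library far from the other 3 by Dixon's test, and chance alone gives about 1 in 20 groups. In Mut.oligo 2 of 5 d, which shares its batch with untreated 2, Atf5 was at 79.0 CPM against 142 to 153 CPM in the other Mut.oligo libraries, and Ddit3 was at 22.5 CPM against 60.4 to 62.5 CPM. At 6 h, Psat1 in untreated 2 was at 162 CPM against 87.3 to 99.6 CPM, and Ppp1r15a in miR-92a-1-5p 4, of the same batch, was at 26.7 CPM against 19.8 to 20.6 CPM. Psat1 was at 76.8 CPM in miR-124-5p 2 of 6 h against 95.4 to 96.1 CPM. Atf3 was at 2.57 CPM in Mut.oligo 1 of 6 h against 1.67 to 1.73 CPM, at levels where the other libraries hold few counts.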

How the results depend on the processing

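In untreated neurons, 5 d against 6 h, 10 of 10 genes passed upward under each alternative run and no log2 fold change turned its sign. Leaving out each library gave log2 fold changes of 0.81 to 0.97 for Asns, 0.88 to 0.98 for Atf4, 1.58 to 2.10 for Ddit3, and 3.21 to 3.61 for Slc7a11. The batch could not be a covariate there, because each batch held 1 time point. In the oligoribonucleotide comparisons and the interactions, 0 of 10 genes passed under each alternative run, and these uncalled values often turned their sign, most often for miR-124-5p against Mut.oligo at 5 d, in 41 of 180 values. Of the values of single genes, 55 moved by more than 1 SE, 39 of them with the batch as a covariate. The cause was not tested. DESeq2 with the batch gave Trib3 an adjusted p of 0.04 for miR-92a-1-5p against Mut.oligo at 5 d, with a log2 fold change of -0.35 that is below the threshold. Over all genes, untreated 5 d against 6 h had 3907 genes up and 2928 down, and 5673 and 5494 without a minimum fold change, and 2656 and 1888 with at least 10 counts in every library. Shares over all genes are not given here for every alternative run.

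At 6 h the replicate number mostly did not mark a shared batch. Same-numbered libraries correlated between -0.26 and 0.31 (median -0.05), and libraries of a batch between 0.06 and 0.39 (median 0.28). At 5 d many same-numbered libraries also shared a batch. Same-numbered libraries of 5 d correlated between -0.22 and 0.42 (median 0.11), and libraries of a batch between 0.07 and 0.42 (median 0.19). Pairs that shared neither had medians of -0.05 at 6 h and -0.07 at 5 d. With the replicate number as a block, 10 of 10 genes passed between untreated 5 d and 6 h and 0 of 10 in each other comparison. The shares of all genes that passed in this fit are not given here, so these counts do not set the 10 genes apart. Depth limits Trib3 and Atf3 most, with 27 and 45 counts in their lowest libraries.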

Other observations

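The low batch of 5 d, untreated 2 and Mut.oligo 2, was also low in other lists of the pathway. All 5 secreted stress factors (median deviation -0.69 log2 CPM), all 10 partners of ATF4 and stress-induced regulators (-0.39), all 9 amino acid transporters (-0.26), and all 8 NRF2 targets (-0.35) lay below the mean of the time point, as did 11 of 12 enzymes of amino acid and one-carbon metabolism (-0.29), 12 of 13 genes of the aminoacyl-tRNA synthetase list (-0.17), and 12 of 14 chaperones and factors of the ATF6 and XBP1 branches (-0.19). The genes for subunits of eIF2 and eIF2B lay on both sides, with 5 of 9 below the mean and a median of -0.01. Markers of cycling cells were above the mean for 6 of 6 genes (0.43). Over all 19333 genes, 51.1% lay below the mean. The batch was singled out after its values were seen, and these counts carry no test.

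The batch of 6 h with untreated 2 and miR-92a-1-5p 4 was above the mean for all 12 enzymes of amino acid and one-carbon metabolism (median 0.37), all 13 genes of the aminoacyl-tRNA synthetase list (0.21), 7 of 9 amino acid transporters (0.27), and all 8 NRF2 targets (0.22), and below it for 9 of 14 chaperones and factors of the ATF6 and XBP1 branches (-0.03), while 47.6% of all 18755 genes lay below the mean.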
